A study of Homo sapiens with 6 samples.

Results

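MAP kinase cascades pass a signal through kinases that phosphorylate one another in a fixed order. The 43 genes described here carry the numbered symbols of 4 tiers of these cascades: 13 MAPK, 7 MAP2K, 18 MAP3K and 5 MAP4K genes, taken by symbol from the 38900 gene rows of the deposited table. All 43 have a row, and 38 of them, 11 MAPK, 7 MAP2K, 16 MAP3K and 4 MAP4K genes, averaged 10 or more normalized counts across all 6 libraries and were tested. The libraries are polyA RNA from hTERT RPE1 cells, a human line of retinal pigment epithelial origin immortalised with telomerase. All cells were held at full confluency for 5 days so that they stopped dividing. For 6 hours in fresh medium, 3 samples then received 0.1% DMSO, the solvent, and 3 received 100 nM combretastatin A4 (CA4), which binds tubulin and depolymerises microtubules. The samples come from 1 cell line at 1 dose and 1 time, and nothing in the labels says whether the 3 libraries of a group are separate experiments, so p-values measure only the spread between these libraries.

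In each cascade a MAP3K phosphorylates a MAP2K, the MAP2K phosphorylates a MAPK on a threonine and a tyrosine of its activation loop, and the MAPK phosphorylates transcription factors and other kinases; MAP4Ks act above some MAP3Ks. The main branches end in the ERK kinases, which answer growth factors, in the JNK and p38 kinases, which answer stress and cytokines, and in ERK5. Their activity is set by phosphorylation, so the transcript levels below describe how much message each kinase has and not how active it is.

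Of the 38 kinases tested, MAP2K3 rose and MAP3K1 fell after CA4, and the other 36 did not pass an adjusted p of 0.05 (limma, Benjamini-Hochberg over all 13928 genes tested). The share of all tested genes past that threshold was 4.94%, with 2.97% higher and 1.97% lower in CA4, so 1 kinase in each direction of 38 is close to the background. At an unadjusted p under 0.05 limma had 7 of the 38 kinases and 23.0% of all genes. By adjusted p, edgeR on reads recovered from the normalized counts called 2 kinases and 4.62% of all genes, and DESeq2 on the same reads called 4 kinases and 12.3%. Limma with the replicate number as a block called 6 kinases and 2397 of the 13928 genes. Most differences were small. The median absolute log2 fold change was 0.16 over the kinases and 0.22 over all genes tested, and the 95% interval of the log2 fold change lay within -1 and 1, that is inside a 2-fold change either way, for 34 of the 38 kinases and for 71.7% of all genes. The genes compared were not matched to the kinases by count level, so these shares do not show that the kinases were steadier than other genes. The 4 kinases whose intervals reached beyond -1 or 1 were MAP2K3, MAP2K6, MAP3K1 and MAP3K21. The 3 CA4 libraries lay entirely above the 3 DMSO libraries in 4 kinases, where 14.3% of all genes did so, and entirely below in 7, where 13.4% of all genes did so. In RNA from whole cultures, a change in the number of cells holding a transcript and a change in its amount per cell cannot be told apart.

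**Figure D1:**
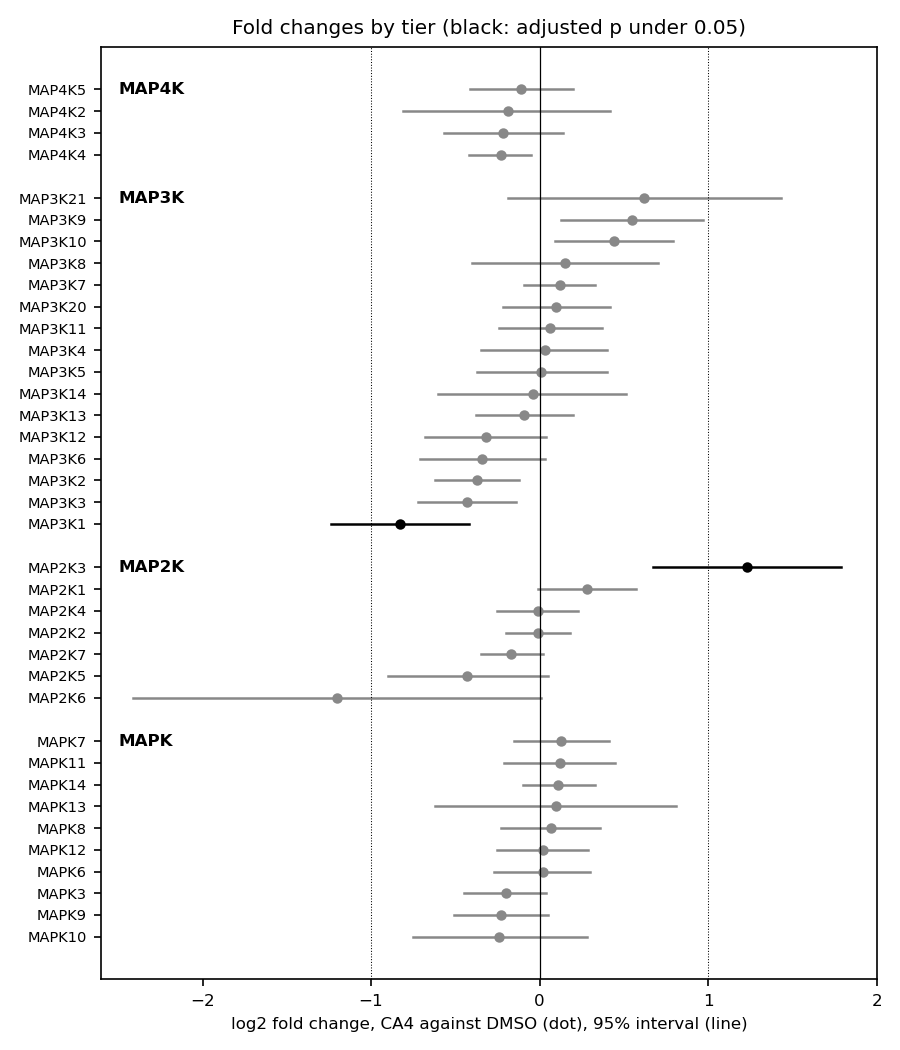
Each dot is the log2 fold change of 1 kinase, CA4 against DMSO, on the scale log2(normalized count + 1), with its 95% interval from limma as a line, grouped by tier; black marks an adjusted p under 0.05 and dotted lines mark a 2-fold change. MAP2K3 at 1.23 and MAP3K1 at -0.83 are the 2 kinases in black, and the 10 MAPK genes shown sit between -0.24 and 0.13.

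MAP2K3 encodes MKK3, which phosphorylates p38 kinases, and it lies on chromosome 17 at 21284711 to 21315240 (RefSeq, GRCh38.p14). Of the 2 kinases past the threshold it is the one with sequences in the RefSeq promoter table used, which lists 2 start sites for it. The 250 bases before each are shown because the counts of this gene rose. Counts are per gene, and which of the 2 start sites was used was not measured. Both are on the plus strand, and capitals mark matches to the motifs of AP-1 and NF-kB. The upstream window is chr17:21284461-21284710 and the downstream one is chr17:21287786-21288035.
upstream start: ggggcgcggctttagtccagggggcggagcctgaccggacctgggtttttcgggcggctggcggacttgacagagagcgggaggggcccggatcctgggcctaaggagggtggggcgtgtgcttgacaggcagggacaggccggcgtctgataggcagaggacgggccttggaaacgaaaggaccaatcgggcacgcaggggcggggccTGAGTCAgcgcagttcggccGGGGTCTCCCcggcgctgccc
downstream start: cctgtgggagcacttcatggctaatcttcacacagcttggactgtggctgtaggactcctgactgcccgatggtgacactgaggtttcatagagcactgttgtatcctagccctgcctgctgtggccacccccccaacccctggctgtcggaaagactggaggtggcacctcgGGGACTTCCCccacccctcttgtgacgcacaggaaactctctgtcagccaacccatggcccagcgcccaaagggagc

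The upstream window holds the AP-1 motif TGANTCA, 41 bases before the start, a pattern that reads alike on both strands, and a match to the NF-kB motif on the minus strand, 21 bases before the start. The downstream window holds an NF-kB match on the plus strand, 77 bases before its start, and no AP-1 match. Searched on both strands, AP-1 was found in 6.57% and NF-kB in 5.21% of the 35116 windows of the same length in the table. The GC box GGGCGG occurred 3 times in the upstream window, with no overlap with the other motifs, and is present in 42.6% of windows. No match was found in either window for CRE (TGACGTCA, 1.65% of windows), TEAD (GGAATG, 11.9%) or the CArG box (1.16%). These are matches of letters, and binding was not measured.

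In DMSO, the normalized counts of MAP2K3 were 1034, 709 and 663 in replicates 1, 2 and 3, and in CA4 they were 2202, 1322 and 2160; values are given in that order throughout. The groups did not overlap, and CA4 replicate 2 was the treated library nearest to DMSO replicate 1, the highest of the controls. The means were 802 ± 203 and 1894 ± 496 (SD, n = 3 per group), a log2 fold change of 1.23 (standard error 0.24, 95% interval 0.67 to 1.79, limma adjusted p = 0.0336), or 2.35-fold. Its direction was upward in every fit run, with log2 fold changes from 1.1 to 1.47, but the call was lost without DMSO replicate 2 (limma adjusted p = 0.122), DMSO replicate 3 (0.131), CA4 replicate 1 (0.105) or CA4 replicate 3 (0.113), and without the trend of variance with mean (0.0885).

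Within the MAP2K tier, the other p38 kinase kinase, MAP2K6 (MKK6), was barely transcribed. It had 13, 18 and 23 reads in DMSO and 4, 6 and 10 in CA4, and its CA4 libraries lay below all DMSO libraries. At 17.1 ± 4.65 and 7.25 ± 3.67 normalized counts (SD, n = 3 per group) its log2 fold change was -1.20 (standard error 0.52, 95% interval -2.41 to 0.01, limma adjusted p = 0.222), the widest interval of all 38. MAP2K3 therefore supplied nearly all p38 kinase kinase message of this pair in both groups.

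MAP2K1 and MAP2K2 encode MEK1 and MEK2, the kinases of the ERK branch. MAP2K1 had 1768, 1634 and 1317 normalized counts in DMSO and 2055, 1783 and 1867 in CA4, with every CA4 library above every DMSO library by a small margin. Its log2 fold change of 0.28 had a 95% interval of -0.01 to 0.57 (limma adjusted p = 0.231). MAP2K2 was at 2124 ± 148 and 2103 ± 28.1 normalized counts (SD, n = 3 per group), with a log2 fold change of -0.01 and a 95% interval of -0.20 to 0.18.

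The JNK kinase kinases are MAP2K4 (MKK4) and MAP2K7 (MKK7). MAP2K4 was at 582 ± 31.8 and 577 ± 37.5 normalized counts (SD, n = 3 per group), a log2 fold change of -0.01 with a 95% interval of -0.25 to 0.23. MAP2K7 had 1021, 1043 and 1028 normalized counts in DMSO and 915, 905 and 936 in CA4. These are tight groups that did not overlap, but the difference was small, a log2 fold change of -0.17 (standard error 0.08, limma adjusted p = 0.267). MAP2K5, the kinase of ERK5, had 223, 298 and 372 normalized counts in DMSO and 204, 246 and 203 in CA4, overlapping groups with a log2 fold change of -0.43 (limma adjusted p = 0.265).

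The make-up of the MAP2K tier was also compared per length, as normalized counts per kilobase of each gene's longest coding transcript in GENCODE 29. MAP2K3 made up 16%, 11.7% and 12% of the tier in the DMSO libraries, and 29.4%, 20.3% and 29.1% in the CA4 libraries. The share of MAP2K2, the largest by this length, averaged 46.9% ± 1.21 in the DMSO libraries and 39.2% ± 2.96 with CA4 (SD, n = 3 per group), while its level did not pass the test. Per kilobase of all exons of a gene, MAP2K2 ranked 2 in DMSO, behind MAP2K1, so these shares depend on the length used. MAP2K1 kept a share near 18%, at 17.6% ± 1.33 and 18% ± 0.877 (SD, n = 3 per group).

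**Figure D2:**
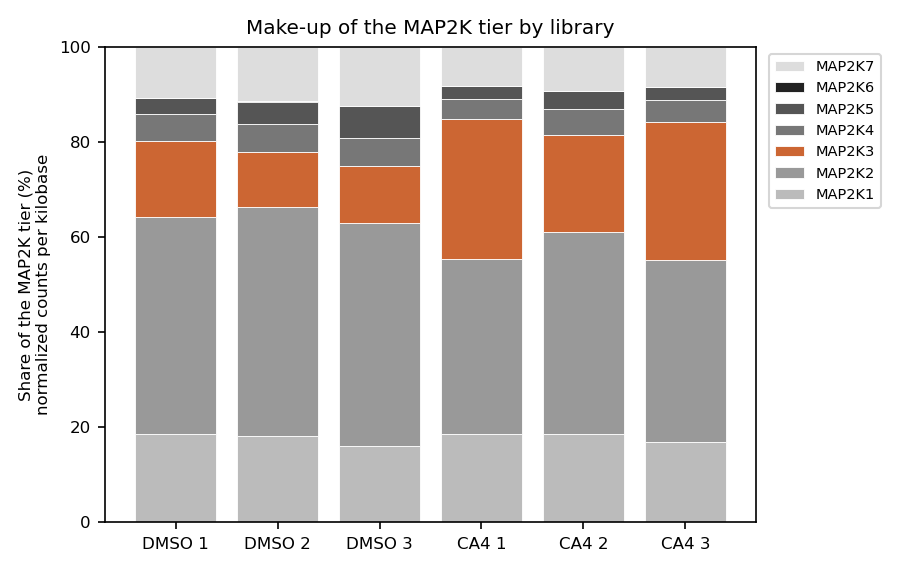
Each bar is 1 library and divides the normalized counts per kilobase of the 7 MAP2K genes into percentages. The MAP2K3 section, in orange, covers 11.7% to 16% of the DMSO bars and 20.3% to 29.4% of the CA4 bars, and MAP2K6 is too low to be seen.

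In the MAP3K tier, 1 of 16 tested genes passed the threshold in limma, downward, beside 1.97% of all genes, and edgeR called 1 and DESeq2 3. At an unadjusted p under 0.05 there were 5 of 16, against 23.0% of all genes. MAP3K1 encodes MEKK1, a kinase of the JNK branch that also carries a ubiquitin ligase domain, on chromosome 5 at 56815549 to 56896152 (RefSeq, GRCh38.p14). It had 245, 268 and 302 normalized counts in DMSO and 146, 185 and 129 in CA4, and every CA4 library was below every DMSO library. The means of 272 ± 28.5 and 153 ± 28.7 (SD, n = 3 per group) gave a log2 fold change of -0.83 (standard error 0.18, 95% interval -1.24 to -0.42, limma adjusted p = 0.0434). The call was narrow: it was lost without DMSO replicate 2 (limma adjusted p = 0.14), DMSO replicate 3 (0.159), CA4 replicate 1 (0.13) or CA4 replicate 3 (0.13), with no filter on low genes (0.0546), under quantile normalization (0.0569) and without the variance trend (0.0756). The direction was downward in every fit run.

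Its relatives MAP3K2 and MAP3K3 (MEKK2 and MEKK3), which act above ERK5 and JNK, were lower in all CA4 libraries too without passing the threshold. MAP3K2 had 1215, 1093 and 1289 normalized counts in DMSO and 997, 837 and 943 in CA4, a log2 fold change of -0.37 (standard error 0.11, limma adjusted p = 0.0897). MAP3K3 had 1072, 1320 and 1129 in DMSO and 777, 980 and 854 in CA4, a log2 fold change of -0.43 (standard error 0.12, limma adjusted p = 0.0895). DESeq2 on the recovered reads placed both past the threshold (adjusted p = 0.0373 and 0.0316), in a test that called 12.3% of all genes, and edgeR placed neither. With library totals made equal MAP3K2 passed, at -0.47 (limma adjusted p = 0.0467). With the replicate number as a block MAP3K2 and MAP3K3 passed (limma adjusted p = 0.0219 and 0.012), in a fit that called 2397 genes. Of the bases in MAP3K3 exons, 6.6% also lie in LIMD2 on the opposite strand (GENCODE 29). For MAP3K4 (MEKK4) the log2 fold change was 0.03 with a 95% interval of -0.35 to 0.40, and whether it differs from those of MAP3K1, MAP3K2 and MAP3K3 was not tested.

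The mixed-lineage kinases, MAP3Ks that activate JNK and p38, had positive fitted values, and 0 of 4 passed with treatment as the only term. MAP3K9 (MLK1) had 216, 301 and 236 normalized counts in DMSO and 343, 440 and 321 in CA4, separate groups with a log2 fold change of 0.55 (standard error 0.18, limma adjusted p = 0.124). MAP3K9 passed only with the replicate number as a block (limma adjusted p = 0.021), in a fit that called 2397 genes. MAP3K10 (MLK2) had 303, 395 and 391 in DMSO and 556, 477 and 442 in CA4, also separate, with a log2 fold change of 0.44 (standard error 0.15, limma adjusted p = 0.137). MAP3K21 (MLK4) had the highest fitted value of the tier, 0.62 (standard error 0.35, 95% interval -0.19 to 1.43, limma adjusted p = 0.341), on 20.3, 21.5 and 18 normalized counts in DMSO and 21.3, 35.9 and 39 in CA4. Its CA4 replicate 1 lay within the DMSO range. MAP3K11 (MLK3), the most abundant of the 4, was at 1547 ± 206 and 1615 ± 194 (SD, n = 3 per group), a log2 fold change of 0.06, which was -0.037 with library totals made equal.

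The dual leucine zipper kinases MAP3K12 (DLK) and MAP3K13 (LZK), known for JNK signalling in injured axons, did not pass. MAP3K12 had 785, 1174 and 1108 normalized counts in DMSO and 793, 790 and 838 in CA4. DMSO replicate 1 stood with the CA4 libraries, and without it the log2 fold change of -0.32 became -0.50 and passed the threshold (limma adjusted p = 0.271 with all libraries and 0.0328 without it). Of MAP3K12 exon bases, 18.7% also lie in PCBP2 on the opposite strand, and the use of strand in counting is not given in the sources used here. MAP3K13 was at 343 ± 10.6 and 323 ± 33.5 normalized counts (SD, n = 3 per group), a log2 fold change of -0.09.

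Among the stress-activated ASK kinases, MAP3K5 (ASK1) was at 229 ± 28.9 and 232 ± 32.2 normalized counts (SD, n = 3 per group). MAP3K6 (ASK2) had 1155, 748 and 925 in DMSO and 734, 689 and 779 in CA4, a log2 fold change of -0.34 (limma adjusted p = 0.256) in which DMSO replicate 2 lay inside the CA4 range. MAP3K20 (ZAK), the kinase that senses stalled ribosomes, was the tier's most counted member, at 1876 ± 285 and 2005 ± 246 (SD, n = 3 per group), with a log2 fold change of 0.10 and a 95% interval of -0.22 to 0.42.

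MAP3K7, MAP3K8 and MAP3K14, each known from NF-kB signalling among other roles, had 95% intervals that included 0. MAP3K7 (TAK1) was at 1131 ± 59.9 and 1226 ± 71.8 normalized counts (SD, n = 3 per group), with a 95% interval of -0.09 to 0.33 for its log2 fold change. MAP3K8 (TPL2), at 85.3 ± 15.5 and 94.9 ± 18.9 (SD, n = 3 per group), had an interval of -0.40 to 0.70. MAP3K14 (NIK), the kinase of the noncanonical pathway, had 239, 377 and 241 in DMSO and 316, 206 and 303 in CA4, where the spread within each group was larger than the log2 difference of -0.04.

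**Figure D3:**
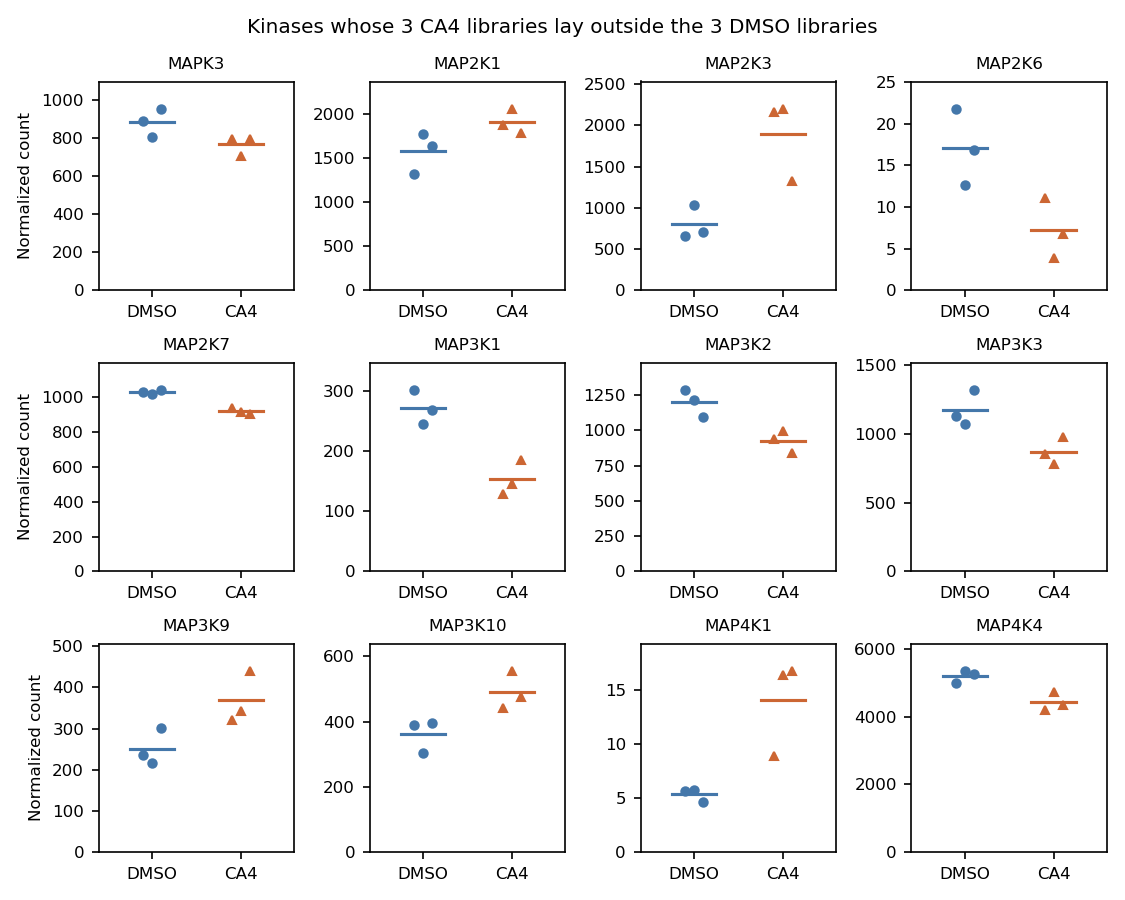
Normalized counts per library (points) and group means (lines) of the 12 kinases whose CA4 libraries all lay above or all below the DMSO libraries, each on its own axis from 0. MAP2K3 and MAP3K1 passed the threshold, and MAP4K1, at 8.92 to 16.8 in CA4, was too low to be tested.

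In the MAP4K tier, 0 of 4 tested genes passed in limma, 0 in edgeR and 0 in DESeq2, and 1 had an unadjusted p under 0.05, as did 23.0% of all genes. That gene was MAP4K4, a kinase of the JNK branch that also regulates adhesion and migration, and the most counted of all 43. It had 5348, 5246 and 4989 normalized counts in DMSO and 4736, 4341 and 4185 in CA4. Every CA4 library was lower, and the log2 fold change was -0.23 (standard error 0.08, 95% interval -0.42 to -0.05, limma adjusted p = 0.129). MAP4K4 passed only when the replicate number was added to limma as a block (adjusted p = 0.0355), a fit that called 2397 genes. MAP4K5 had 2386, 2167 and 3029 in DMSO and 2332, 2170 and 2478 in CA4, overlapping groups with the smallest log2 fold change of the tier, -0.11 (standard error 0.13, limma adjusted p = 0.678).

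MAP4K3 (GLK), which is linked to amino acid sensing, was at 615 ± 95.1 and 528 ± 76.5 normalized counts (SD, n = 3 per group), and MAP4K2 at 223 ± 42.7 and 200 ± 66.7 (SD, n = 3 per group). Both sets of libraries overlapped. MAP4K1 (HPK1), known from blood cells, missed the minimum for testing at a mean of 9.72 over the 6 libraries. It had 6, 5 and 6 reads in DMSO and 17, 15 and 8 in CA4.

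No MAPK gene passed the threshold: 0 of 11 in limma, 0 in edgeR and 0 in DESeq2, and 0 had an unadjusted p under 0.05, as 23.0% of all genes did. MAPK3 (ERK1) had 804, 954 and 892 normalized counts in DMSO and 708, 797 and 796 in CA4. It was the only MAPK gene whose groups did not overlap, with a log2 fold change of -0.20 (standard error 0.11, limma adjusted p = 0.304).

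The 95% intervals of the 3 JNK genes all included 0. MAPK8 (JNK1) was at 560 ± 52 and 587 ± 66.9 normalized counts and MAPK9 (JNK2) at 893 ± 60.8 and 763 ± 97.8 (SD, n = 3 per group), with log2 fold changes of 0.07 and -0.23. MAPK10 (JNK3), best known from neurons, was low but present. It had 93.7, 135 and 122 normalized counts in DMSO and 80.2, 102 and 115 in CA4, the lowest fitted value of the tier at -0.24 (standard error 0.22, limma adjusted p = 0.575).

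The p38 genes, of the branch in which MKK3 acts, had fitted values of 0.02 to 0.12. MAPK14 (p38 alpha) was at 1411 ± 120 and 1523 ± 51.3 normalized counts (SD, n = 3 per group), a log2 fold change of 0.11 with a 95% interval of -0.10 to 0.33. MAPK11 (p38 beta) was at 267 ± 7.65 and 292 ± 41.7, MAPK12 (p38 gamma) at 750 ± 95.5 and 755 ± 38.6, and MAPK13 (p38 delta) at 76.5 ± 20.3 and 82.7 ± 27.6 (SD, n = 3 per group). Counts of MAPK12 are uncertain, because 29.3% of its exon bases also belong to HDAC10 on the same strand in GENCODE 29.

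MAPK7 (ERK5), a MAPK with a long C-terminal region that acts in transcription, had the highest fitted value of its tier. It had 815, 843 and 878 normalized counts in DMSO and 942, 799 and 1054 in CA4, a log2 fold change of 0.13 (standard error 0.12, limma adjusted p = 0.559) with CA4 replicate 2 below all DMSO libraries. MAPK6 (ERK3), an atypical MAPK, was at 1658 ± 94.8 and 1688 ± 258 (SD, n = 3 per group). Several processed copies of MAPK6 exist, and 8.9% of its 50-base words also occur in other genes of GENCODE 29.

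Apart from MAP4K1, the members too low to be tested were near or at 0. MAPK4 (ERK4) had 0 reads in each of the 6 libraries, which allows up to 2.8 to 3.37 normalized counts per library at this depth, counting error only. MAPK15, another atypical MAPK, MAP3K15 (ASK3) and MAP3K19 had between 0 and 2 reads in every library. No difference between groups could be detected in them at this depth.

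**Figure D4:**
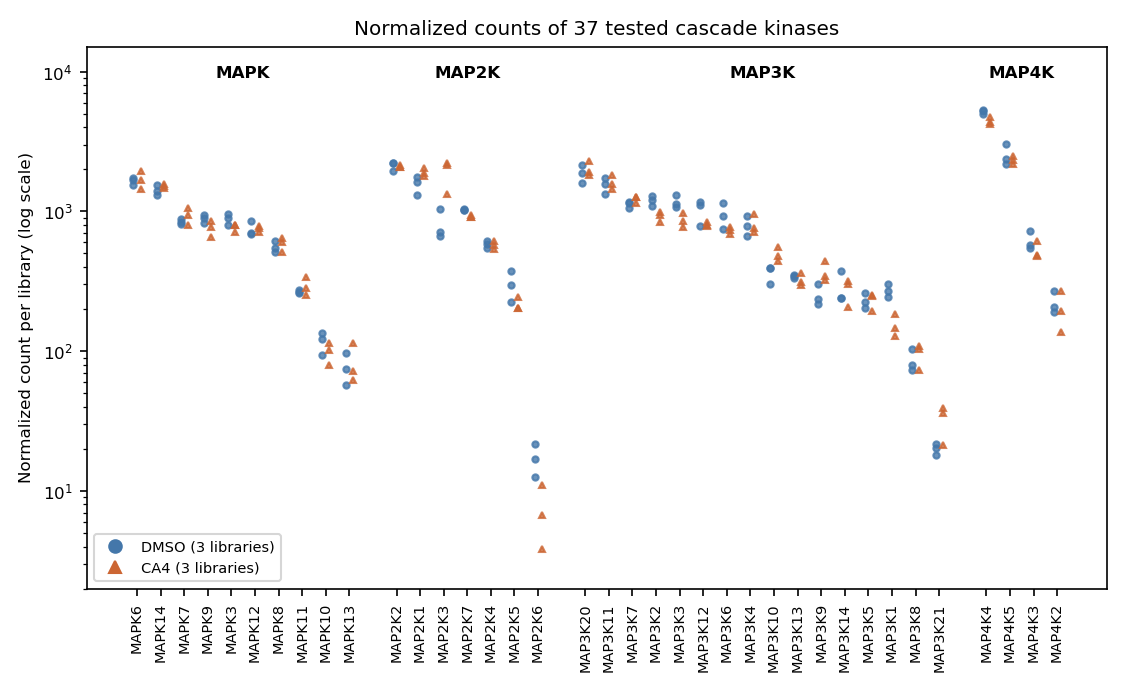
Normalized counts of 37 tested kinases on a log axis, 3 DMSO libraries as circles and 3 CA4 libraries as triangles, ordered within each tier by mean count. Most pairs of groups coincide; MAP2K3, MAP2K6 and MAP3K1 are the members past or near a 2-fold gap, and MAP2K6 runs from 3.87 to 21.8 at the bottom of the range.

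Per kilobase of longest coding transcript, the highest DMSO levels were those of MAP2K2, at 1225 ± 85.1, MAP4K4, at 680 ± 24.2, and MAP4K5, at 581 ± 103 (SD, n = 3 per group), and the libraries of the last 2 overlapped. In the MAP3K tier MAP3K11 led with 434 ± 57.8, apart from MAP3K20 at 261 ± 39.7, and MAP3K20, MAP3K3, MAP3K12, MAP3K7 and MAP3K6 followed one another down to 219 ± 47.4 with overlapping libraries at each step (SD, n = 3 per group). MAP3K1, at 38.8 ± 4.06, ranked 12 of the 16, and MAP3K21 was last at 3.43 ± 0.302. In the MAPK tier, MAPK12, MAPK3, MAPK14 and MAPK6, between 391 ± 49.8 and 310 ± 17.7, overlapped from each to the next, while MAPK10 and MAPK13, at 13.1 ± 2.35 and 12.4 ± 3.28, stood at the end (SD, n = 3 per group). The top places depend on the length used. Per kilobase of all exons of a gene, MAPK12 moved from rank 1 to 8, MAP2K2 and MAP2K1 changed places, and MAP3K11 moved from rank 1 to 4.

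The tiers as wholes differed little between groups. Summed over the 13 MAPK genes, normalized counts were 10206 ± 324 in DMSO and 10180 ± 145 in CA4 (SD, n = 3 per group). The MAP2K sum was 6427 ± 494 in DMSO and 7620 ± 568 in CA4, with the lowest CA4 library at 6968 and the highest DMSO library at 6891. This separation was lost when library totals were made equal (6777 against 7204) or 75th percentiles were (6903 against 6905), and with equal totals all CA4 libraries were lower in the MAPK sum, at most 10050 against at least 10158. MAP2K3 alone accounts for most of the difference between the MAP2K sums, since its own means differ by nearly as much as the means of those sums. For the MAP3K genes the sums were 11534 ± 87.3 and 10961 ± 288, and for the MAP4K genes 8565 ± 354 and 7489 ± 190, both with all CA4 libraries lower (SD, n = 3 per group). The MAP4K sum rests mainly on MAP4K4 and MAP4K5.

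**Figure D5:**
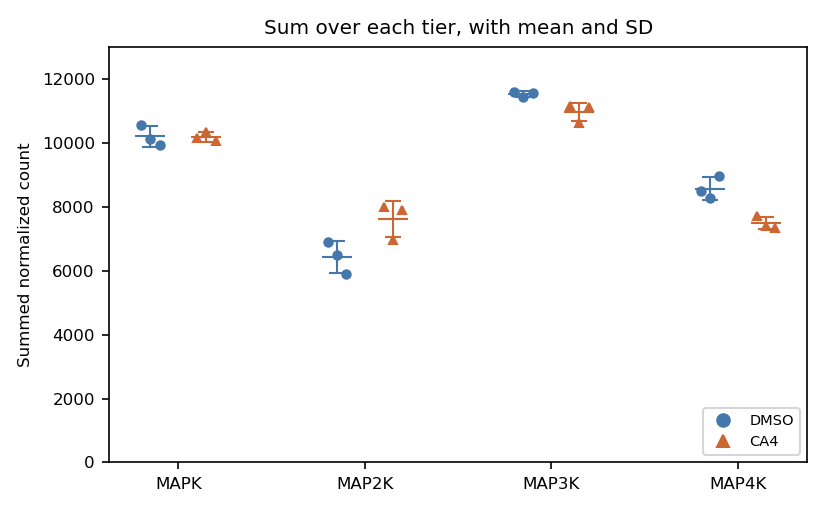
Summed normalized counts of each tier per library, with group means and SD as bars, on an axis from 0. The MAPK sums overlap and the MAP2K sums are higher in CA4, both of which change with equal library totals, and the MAP3K and MAP4K sums are lower in CA4.

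The fitted log2 fold changes had medians of 0.02 in the MAPK tier, -0.01 in the MAP2K tier, 0.02 in the MAP3K tier and -0.21 in the MAP4K tier, beside -0.01 over all genes tested. All 4 tested MAP4K values were below 0, as were 4 of 11 MAPK, 5 of 7 MAP2K and 7 of 16 MAP3K values. Over all genes tested, 7122 of 13928 values were below 0. The spread of the values was narrowest in the MAP4K tier, from -0.23 to -0.11 over its 4 tested genes. It ran from -0.24 to 0.13 in the MAPK tier and was widest in the MAP2K tier, from -1.20 to 1.23. With library totals made equal, the median of all genes moved by -0.101, and 28 of the 38 kinases had values below 0 instead of 20. The direction of a kinase with a value near 0 therefore holds only relative to the scaling, while MAP2K3 and MAP3K1 kept theirs.

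Other genes of these pathways gave further context. Of the 11 kinases that MAPKs activate, all tested, 1 passed, beside 4.94% of all genes, with 1 call in edgeR and 2 in DESeq2. RPS6KA5 (MSK1), which phosphorylates histone H3 and CREB below ERK and p38, fell. It had 86.9, 110 and 186 normalized counts in DMSO and 30.9, 43.8 and 30.1 in CA4, a log2 fold change of -1.79 (standard error 0.33, limma adjusted p = 0.0274), and the call was lost in 4 of the 6 fits without a library, those without DMSO replicates 2 or 3 or CA4 replicates 1 or 3 (highest adjusted p 0.0935), and without the variance trend. MAPKAPK2, a p38 substrate that stabilises cytokine messages, was at 2134, 2013 and 1816 in DMSO and 2699, 2402 and 2533 in CA4, and its log2 fold change of 0.36 missed the threshold (limma adjusted p = 0.0687). RPS6KA2 had a log2 fold change of -0.12.

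Of the 13 RAS proteins and their exchange factors, adaptors and relatives, all tested, 1 passed in limma, 1 in edgeR and 1 in DESeq2, and 1 of a list this size is near the 4.94% of all genes. MRAS, a RAS relative, rose. It had 966, 1031 and 1102 normalized counts in DMSO and 1443, 1714 and 2172 in CA4, a log2 fold change of 0.76 (standard error 0.15, limma adjusted p = 0.0345), and it kept its call only without CA4 replicate 1 among the 6 fits without a library (adjusted p 0.0374 to 0.115) and lost it without the variance trend. SOS1, an exchange factor for RAS, had a log2 fold change of -0.32 (limma adjusted p = 0.135). ARHGEF2 (GEF-H1), an exchange factor for small GTPases that is held on microtubules, had 1314, 1511 and 1334 in DMSO and 1496, 1868 and 1686 in CA4, overlapping groups with a log2 fold change of 0.28 (limma adjusted p = 0.186).

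Of the cascade kinases with other names, 9 of 10 were tested and 0 passed in limma, 0 in edgeR and 1 in DESeq2, with 2 at an unadjusted p under 0.05, a share near the 23.0% of all genes. TNIK, a relative of MAP4K4, had 674, 448 and 493 normalized counts in DMSO and 294, 307 and 386 in CA4, a log2 fold change of -0.70 (limma adjusted p = 0.0754). NLK, an atypical MAPK relative, had a log2 fold change of 0.24 (limma adjusted p = 0.326). Of the 18 scaffolds and adaptors, 16 were tested and 0 passed in limma, edgeR or DESeq2, with 2 at an unadjusted p under 0.05, against 23.0% of all genes. TAB1, the partner of TAK1, had a log2 fold change of -0.47 (limma adjusted p = 0.128), SPAG9, a JNK scaffold, one of 0.28 (0.139) and PEBP1 one of -0.16 (0.345).

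Dual-specificity phosphatases switch MAPKs off. Of 10 such genes 8 were tested, and 1 rose and 1 fell in limma, beside 4.94% of all genes called, with 2 calls in edgeR and 3 in DESeq2. Their median absolute log2 fold change of 0.94 stood beside 0.22 over all genes. DUSP1, which acts on p38 and JNK, had 1002, 1061 and 1075 normalized counts in DMSO and 2859, 3116 and 2898 in CA4, and rose 2.83-fold (limma adjusted p = 4.38e-04) and kept its call without each library in turn. DUSP4, which acts in the nucleus, had 430, 524 and 454 normalized counts in DMSO and 229, 185 and 197 in CA4, a log2 fold change of -1.20 (standard error 0.14, limma adjusted p = 0.00901), and lost its call only without DMSO replicate 3 (0.0506). DUSP7 had a log2 fold change of 0.61 (limma adjusted p = 0.0775).

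Of 10 genes often read as output of the ERK branch, all tested, 2 fell and 0 rose in limma, beside 1.97% and 2.97% of all genes. Fitted values were above 0 in 5 and below 0 in 5, 5 had an unadjusted p under 0.05 (23.0% of all genes), and edgeR called 2 (4.62%) and DESeq2 4 (12.3%). Besides DUSP4, which both lists hold, PHLDA1 had 2247, 2560 and 2181 normalized counts in DMSO and 1268, 1371 and 1555 in CA4, a log2 fold change of -0.74 (standard error 0.11, limma adjusted p = 0.0158). It lost its call without DMSO replicates 2 or 3 or CA4 replicate 1 (highest adjusted p 0.0627), and without the variance trend. SPRY4, a feedback inhibitor of receptor signalling, had 209, 86 and 107 in DMSO and 501, 250 and 448 in CA4, a log2 fold change of 1.61 that missed the threshold (limma adjusted p = 0.0542).

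The libraries held 19524936 to 22538004 recovered reads, and 3 reads, the limit that a count of 0 allows, were worth 2.8 to 3.37 normalized counts. Of 11 markers of retinal pigment epithelium, 8 had a mean of at least 10: KRT8, KRT18, MITF and OTX2 were well counted, RPE65 lay between 13.5 and 40.8, and TYR, RLBP1 and TTR were at 0 to 5.7. Fitted values were above 0 in 4 of these 8 and below 0 in 4, and 1 passed in limma, beside 4.94% of all genes. KRT18 was higher in all CA4 libraries, at a log2 fold change of 0.46 (limma adjusted p = 0.0849), and MITF was at -0.98 (0.1) with overlapping libraries. OTX2 fell after CA4, with a log2 fold change of -1.11 (limma adjusted p = 0.0158), a call lost without DMSO replicates 2 or 3 or CA4 replicates 1 or 3 (highest adjusted p 0.0816) or without the variance trend. The endothelial markers PECAM1, CDH5 and VWF were all present, with sums of 944 to 1427 normalized counts in DMSO and 1304 to 3224 in CA4, where the highest value was CA4 replicate 3. Their log2 fold changes were 0.74, 0.64 and 0.65, and 0 passed (limma adjusted p = 0.215, 0.374 and 0.287). PECAM1 was higher in all CA4 libraries, and the libraries of CDH5 and VWF overlapped. Of the blood cell markers, CD3E had no read. PTPRC had 3.86, 2.8 and 2.85 normalized counts in DMSO and 10.6, 4.49 and 5.57 in CA4, and LYZ had 16.4, 15.9 and 18 in DMSO and 30.9, 21.3 and 32.3 in CA4. Both were higher in all CA4 libraries, as was MAP4K1. CD68, nearly all of the list's sum of 738 to 940 in DMSO and 541 to 747 in CA4, was lower in all CA4 libraries. LYZ and CD68 did not pass the threshold (limma adjusted p = 0.266 and 0.279), and PTPRC was too low to be tested. The part of these markers in the kinase values was not tested; without CA4 replicate 3 the log2 fold change of MAP2K3 was 1.12, against 1.23 with all libraries, and that of MAP3K1 was -0.72, against -0.83.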

How the data were processed

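RNA was sequenced from 6 samples, 3 per group, with group and replicate number taken from the titles. The deposited values are a signal, reads divided by 1 scaling factor per library by the authors, called normalized counts. The submitters' processing notes name Trim Galore 0.6.6, FastQC 0.12.1, Salmon 1.8.0, STAR 2.7.9a and DESeq2 1.44.0 and the build GRCh38; their roles, the annotation and the use of strand are not given in the sources used here. In each column 100% of values were whole multiples of the smallest, within 0.01, which recovered whole reads; they may be rounded estimates.

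Genes with a mean of at least 10 were tested with limma 3.58.1 (R 4.3.3) on log2(normalized count + 1), treatment as the only term and a variance trend, two-sided, Benjamini-Hochberg over 13928 genes, threshold 0.05. Folds are on that scale, which understates low genes. 1 tested MAPK gene and a few genes of other lists are counted but not reported here by name. Members and lists were chosen with earlier results of these data known. Full values go to members past the threshold, to separated members changed at least 1.5-fold, and to each tier's extremes; others are given more briefly, and 3 genes or fewer per list by smallest adjusted p; markers are named by level, after their values were seen. Alternatives were other pseudocounts, filters, scalings and variance priors, the replicate number as a block, edgeR 4.0.16 and DESeq2 1.42.0 on recovered reads, and leaving out each library. The fits were tested on simulated data with known changes, where a larger share of DESeq2's calls was false than of limma's or edgeR's. DESeq2 also recovered a larger share of the known changes than limma or edgeR, and each fit missed part of them. Symbols came from the supplied gene table, lengths and overlaps from GENCODE 29, and coordinates and promoters from RefSeq GRCh38.p14.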

Additional observations from a re-analysis of the deposited data

How the results depend on the processing

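Against 2 kinases past the threshold (1 MAP2K, 1 MAP3K, 0 MAPK, 0 MAP4K) and 688 genes in all, the counts were 0 kinases (0 MAP2K, 0 MAP3K) and 103 genes without the variance trend, 4 kinases (3 MAP3K) and 1613 genes in DESeq2, and 1 kinase (0 MAP3K) with no filter or under quantile normalization; the cause was not tested. Scaling to the same total gave 2 MAP3K calls. Leaving out 1 library gave 0 to 3 kinases (0 to 1 MAP2K, 0 to 2 MAP3K) and 81 to 994 genes, and fewer libraries lower the power by construction. No kinase was called without DMSO replicate 2, DMSO replicate 3 (81 genes), CA4 replicate 1 or CA4 replicate 3, and 3 were without DMSO replicate 1 (994 genes). Higher genes made up 60% of calls, and 34.8% with the same total.

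With the replicate number as a block, 6 kinases (4 MAP3K, 1 MAP4K) and 2397 genes passed: MAP2K3, MAP3K1, MAP3K2, MAP3K3, MAP3K9 and MAP4K4. The titles number the replicates alike in both groups without saying that equal numbers belong together. Deviations of same-numbered libraries correlated at 0.202, 0.159 and 0.059, not all above 0.1, and the libraries were not treated as paired. Yet 5 of 6 libraries correlated best with their own number (all but CA4 replicate 3), a hint of pairing from the data. Whether equal numbers are pairs cannot be settled here, and the count of calls depends on that choice.

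Of 37 kinases 24 kept their sign in every alternative and 13 did not; 0 of the 13 were called in any of them. With the same total, MAPK6 was at -0.085, MAPK8 at -0.034, MAPK12 at -0.085, MAPK13 at -0.0048, MAP3K4 at -0.072, MAP3K5 at -0.086, MAP3K11 at -0.037 and MAP3K20 at -0.0012. At the same 75th percentile, MAPK6 was at -0.016, MAPK12 at -0.016, MAP3K4 at -0.0038 and MAP3K5 at -0.018. Under quantile normalization, MAPK6 was at -0.038, MAP2K4 at 0.016 and MAP3K14 at 0.021. Without 1 library, MAPK6 ran from -0.1 to 0.12, MAPK8 from -0.0031 to 0.16, MAPK12 from -0.038 to 0.12, MAPK13 from -0.16 to 0.28, MAP2K2 from -0.071 to 0.02, MAP2K4 from -0.062 to 0.031, MAP3K4 from -0.1 to 0.15, MAP3K5 from -0.072 to 0.13, MAP3K11 from -0.04 to 0.15, MAP3K14 from -0.16 to 0.17, MAP3K20 from -0.015 to 0.21, MAP4K2 from -0.44 to 0.053 and MAP4K5 from -0.21 to 0.031. The log2 ratio of summed counts moved to -0.105 (MAPK), -0.175 (MAP3K) and -0.294 (MAP4K), and from 0.246 to 0.143 (MAP2K), with the same total, to -0.106 (MAP3K) at the same 75th percentile and to -0.269 (MAP4K) under quantile normalization. MAPK4, MAPK15, MAP3K15, MAP3K19 and MAP4K1 are limited by depth.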
